A study of Homo sapiens with 8 samples.

Results

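The 41 genes described here encode growth factor receptors and the kinases that act below them. They were given by name, as 15 receptor tyrosine kinases, 6 adaptor and RAS genes, 9 kinases of the MAPK cascades, 6 genes of the PI3K-AKT branch, 4 genes of the mTOR branch and the kinase gene WNK1, and are 41 of the 59385 gene symbols in the count table. After a filter on low counts 39 of them were tested, among 16228 genes. FGFR2, with 0 to 8 counts per library, and DDR1, with 0 counts in all 8 libraries, were not.

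The cells were IHCF, an immortalized line of human cardiac fibroblasts, carrying a lentiviral short hairpin RNA against EIF4G2 (the knockdown) or a scrambled hairpin with no target (the scramble). Both lines had been grown with 10% fetal bovine serum, non-essential amino acids and 5 µg/ml human insulin. Insulin is itself a ligand of receptors described here. After 6 h or more in serum-free medium both lines received TGF-beta for 24 h, so no group was without TGF-beta. Total RNA and polysomal RNA, which is the RNA associated with several ribosomes, were each sequenced as 2 libraries per hairpin, giving 4 groups and 8 libraries. A single hairpin and no rescue were among these libraries. The labels call the libraries biological replicates and do not say whether they came from separate cultures. A p-value here reflects how far the 2 libraries of a group lie apart, which may be technical. That spread was pooled over the 4 groups and shared in part across genes, so it is not that of the compared groups alone. The series' design text speaks of triplicates, and 2 libraries per group were analysed here.

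A receptor tyrosine kinase that binds its ligand phosphorylates itself and gathers adaptor proteins, of which SHC1 and GRB2 bring the exchange factors SOS1 and SOS2 to RAS. RAS opens the RAF-MEK-ERK cascade, while PI3K makes a membrane lipid that draws PDPK1 and AKT together, and AKT acts in turn on mTOR, a kinase that controls the translation of mRNAs. In fibroblasts these receptors are known for driving division, migration and survival. EIF4G2 is a relative of the translation initiation factor eIF4G without the stretch that contacts the cap-binding protein eIF4E, and it is known for initiation on selected mRNAs.

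The start codons of the members at the ends of the comparison of polysomal with total RNA are shown. Each line gives 12 bases before the start codon, the start codon in capitals and 4 bases after it, from the GENCODE release 29 transcript used for the gene's length on GRCh38. The first 5 lines are members that were higher in polysomal than in total RNA in at least 1 of the hairpin lines, and the next 6 are members that were lower.
MAP2K2: cgcggagccccgATGctgg
ARAF: atctaaggctccATGgagc
MAPK3: ggaggagtggagATGgcgg
MAPK8: ttgcttgccatcATGagca
AKT1: gcctcgggcaccATGagcg
PIK3R1: agatttgcaaacATGagtg
RPTOR: cctcccccactgATGgagt
WNK1: agcgaaccgaccATGtctg
MTOR: cctcagggcaagATGcttg
PDPK1: gacgcggggcccATGgcca
DDR2: ccatcttctgagATGatcc
An A or G at the third base before the start codon, as initiation sites usually have, was present in 32 of the 39 tested members (82.1%), against 85.9% of 12421 tested coding genes. A G right after the start codon was present in 14 members (35.9%) against 53.0% of those genes, and both features together in 10 members (25.6%) against 45.5%. MAP2K2, the member highest in polysomal relative to total RNA, has neither feature, and MAPK3 has both. These letters describe 1 transcript per gene and are not a test of initiation.

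Library totals ran from 18043714 to 24590030 counts. Scaling used the library total times a TMM factor (1.37 to 1.45 in total RNA, 0.653 to 0.751 in polysomal RNA). A level is thus a share of what was sequenced, and less of an RNA per cell and fewer cells that hold it cannot be told apart. The biological coefficient of variation was 0.112 among total and 0.246 among polysomal libraries, and the replicates of each group differed by more than counting noise. Over all 8 libraries, which were fitted together for the tests, it was 0.181, above that of total and below that of polysomal RNA. Levels are given as CPM, counts scaled to a common library size with the TMM factor included. Of 10 fibroblast markers the summed level was 5465 to 6928 CPM, most of it from collagens and vimentin, while DCN and FAP were near 0. The summed level of 8 cardiomyocyte markers was 0 to 1.15 CPM, with MYH6, MYH7 and MYBPC3 at 0. Endothelial markers summed to 7.55 to 15.2 CPM and leukocyte markers to 2.01 to 7.89 CPM, and mural markers to 78.6 to 479 CPM. Epithelial markers summed to 1166 to 3202 CPM through KRT8 and KRT18, with ESRP1 and GRHL2 at 0.

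The hairpin's target was measured first. EIF4G2 stood at 793.0 and 784.5 CPM in scramble total RNA and at 293.1 and 326.9 CPM in knockdown total RNA. The difference was -1.35 ± 0.18 (SE) on the log2 scale, with an adjusted p of 0.0504 in edgeR's quasi-likelihood test (Benjamini-Hochberg adjustment over all tested genes) and 4.05e-10 in DESeq2. In polysomal RNA the libraries stood at 874.6 and 876.3 CPM for the scramble and at 243.8 and 334.3 CPM for the knockdown, a log2 difference of -1.60 ± 0.18 (SE) with an edgeR adjusted p of 0.0276. That call was lost in 5 of the 8 fits that left out a library (edgeR adjusted p = 0.102 to 0.224). The libraries of the 2 hairpins did not overlap in either fraction, and each difference matched its label.

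Per kilobase of reference transcript, the highest member in scramble total RNA was AXL, the receptor of the vitamin K-dependent ligand GAS6, at 138 ± 0.0290 CPM per kb (SD, n = 2). SHC1 followed at 76.6 ± 1.27 and MAP2K2, which encodes a MEK kinase that phosphorylates ERK, at 75.7 ± 0.440 CPM per kb, a pair whose values lay within their spread. EPHA2, an ephrin receptor, stood at 42.6 ± 0.0934, GRB2 at 36.6 ± 0.0139 and EPHB2, another ephrin receptor, at 31.5 ± 0.459 CPM per kb. AKT1 was at 27.4 ± 0.258, ARAF at 25.8 ± 0.0442 and AKT2 at 25.1 ± 0.327 CPM per kb. FGFR1 at 24.3 ± 0.550, NRAS at 24.1 ± 0.341 and MAPK3, which encodes an ERK kinase, at 24.0 ± 0.122 CPM per kb did not differ beyond their spread.

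The PDGF receptors, which drive fibroblast division, differed in level. PDGFRB stood at 7.03 ± 0.313 CPM per kb in scramble total RNA, and PDGFRA at 0.237 ± 0.0381. DDR2, a collagen receptor that marks cardiac fibroblasts, stood at 0.448 ± 0.0307 CPM per kb. The other receptors were ERBB2 at 22.1 ± 0.705, EPHB4 at 23.3 ± 1.62, EGFR at 11.4 ± 0.564, the hepatocyte growth factor receptor MET at 5.54 ± 0.211, IGF1R at 4.62 ± 0.0976 and INSR at 1.98 ± 0.0937 CPM per kb. Of the members not yet named, MAPK14 at 18.5 ± 0.468, MAP2K1 at 18.4 ± 0.691, WNK1 at 15.3 ± 0.689 and MTOR at 10.5 ± 0.719 CPM per kb were the highest. RPS6KA1, RPTOR, RPS6KA3, RPS6KB1 and MAPK8 followed between 9.71 and 5.08, and PDPK1, SOS1, SOS2, PIK3CA, PIK3CB, PIK3R1, RICTOR and BRAF lay between 4.58 and 2.20 CPM per kb.

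In polysomal RNA of scramble cells the order was led by MAP2K2 at 267 ± 16.5 CPM per kb. AXL came next at 108 ± 26.5, ahead of ARAF at 49.3 ± 5.32, MAPK3 at 44.5 ± 3.11, SHC1 at 40.5 ± 4.44 and EPHB2 at 39.6 ± 2.77 CPM per kb, neighbours that did not differ beyond their spread.

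**Figure D1:**
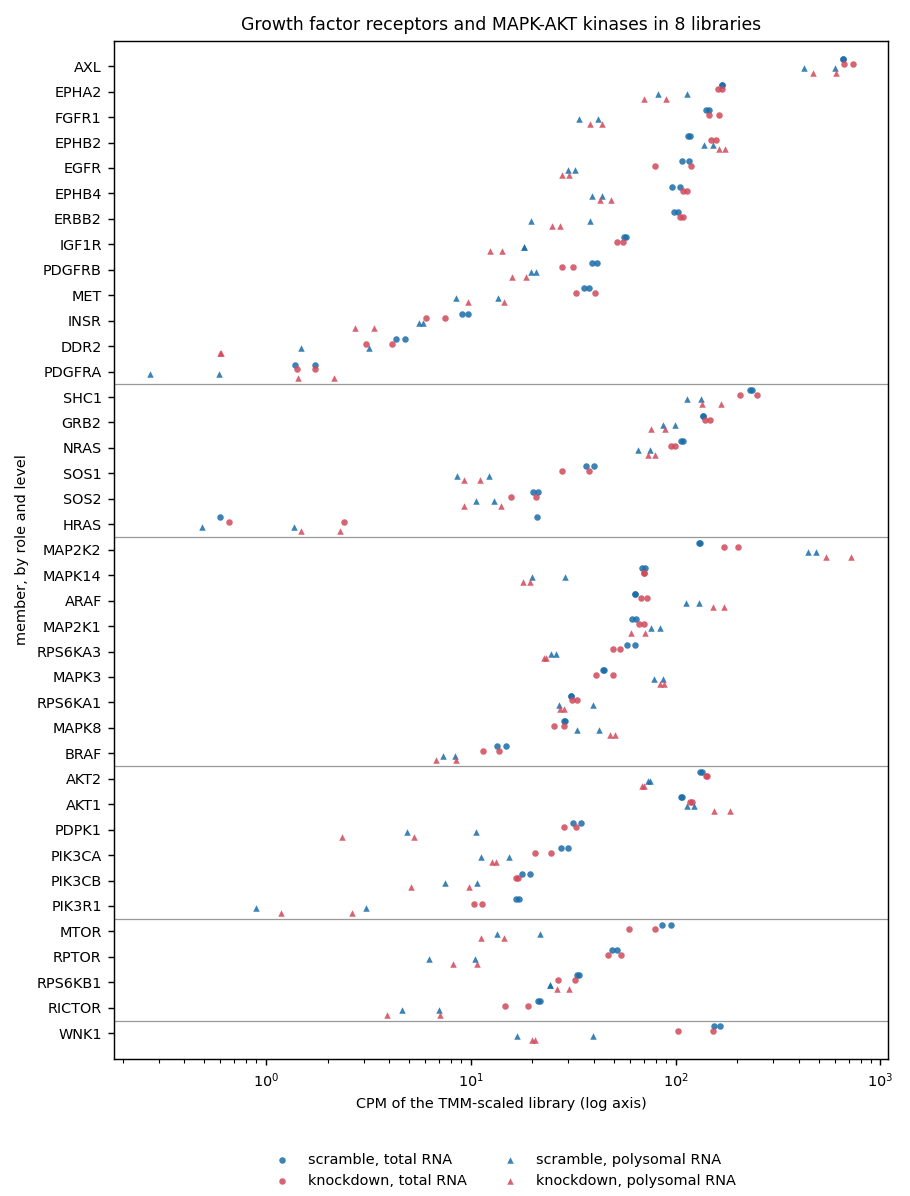
Level of the 39 tested members in each of the 8 libraries, in CPM on a log axis, ordered by role and by level in scramble total RNA; circles are total RNA, triangles polysomal RNA, blue scramble and red knockdown. Most members lie lower in polysomal than in total RNA, MAP2K2 lies higher, and the circles of HRAS spread from 0.597 to 21.0 CPM.

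HRAS and DDR1 cannot be read as levels. HRAS, a RAS gene, had 628 counts in scramble total replicate 1, 16 in scramble total replicate 2, 21 and 73 in the knockdown total libraries, and 9, 23, 22 and 27 in the polysomal libraries. A single library thus carried most of its counts, and its fold changes below rest on that library. Of the 10 coding genes within 100000 bases of HRAS, 7 had under 100 counts over all 8 libraries, and RNH1, a ribonuclease inhibitor gene that most cells express, had 784. DDR1, a collagen receptor, was listed at 0 in every library, as were all 5 coding genes within 100000 bases of it, among them VARS2, a mitochondrial aminoacyl-tRNA synthetase gene, and GTF2H4, a subunit gene of a general transcription factor. Farther along the same chromosome FLOT1 was at 0 and TUBB, a tubulin gene, at 0 to 3 counts per library. In this stretch, the major histocompatibility region of chromosome 6 (29550407 to 33457548, GRCh38), 92 of 149 coding genes were listed at 0. The cause was not tested, and no absence of DDR1 or HRAS mRNA is read from these values. NRAS, the other RAS gene among the members, had 938 to 3179 counts per library.

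Other limits touch single genes. How the authors treated strand and reads shared by overlapping genes is not given in the sources used here. In the GENCODE annotation 35.8% of the exon bases of PIK3CA lie over another gene (KCNMB3 on the opposite strand), 23.7% of those of PDPK1, 15.8% of those of PDGFRA, 15.2% of those of SHC1 and 11.5% of those of MAP2K1. These are shares of annotated bases and not of reads, so how far the counts of these 5 genes are affected is not known.

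The first comparison asks which of these mRNAs were over- or under-represented among ribosome-bound RNA. In scramble cells 29 of the 39 tested members were lower in polysomal than in total RNA, against 33.7% of all tested genes, and 3 were higher, against 29.7%. The 3 were MAP2K2, ARAF and MAPK3, a MEK, a RAF and an ERK kinase of one cascade, of which BRAF was called lower. Apart from HRAS the 3 have the shortest reference transcripts among the tested members, of 1734, 2458 and 1861 nt. The median log2 fold change was -0.99 over the members and -0.17 over all tested genes. Libraries of the 2 fractions did not overlap for 30 members that were lower (46.1% of all tested genes were lower in that way) and for 7 that were higher (38.8%). The zero of these fold changes is set by the TMM scaling, under which the bulk of genes is taken to be alike between fractions.

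Among the MAPK kinases 3 of 9 rose and 3 fell, with a median of 0.35. MAP2K2, on chromosome 19 (4090321 to 4124129, minus strand, GRCh38), stood at 130.8 and 131.9 CPM in total and at 442.0 and 482.6 CPM in polysomal RNA. Its polysomal libraries lay far above both total libraries, and its log2 fold change was 1.82 ± 0.18 (SE; edgeR adjusted p = 7.81e-06). ARAF, the RAF kinase encoded on the X chromosome (47561100 to 47571920, plus strand), stood at 63.2 and 63.4 CPM in total and at 111.9 and 130.4 CPM in polysomal RNA. It was higher by 0.94 ± 0.15 (edgeR adjusted p = 1.97e-04). MAPK3 went from 44.8 and 44.5 to 78.7 and 86.9 CPM, a rise of 0.89 ± 0.15 (edgeR adjusted p = 3.22e-04).

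Close relatives of these kinases did not all behave alike, although differences between genes were not tested. MAP2K1, the other MEK gene, was at 64.4 and 61.0 CPM in total and at 83.9 and 75.8 CPM in polysomal RNA, without overlap, but its difference of 0.35 ± 0.14 missed the threshold (edgeR adjusted p = 0.0545). BRAF fell by 0.85 on the log2 scale (SE 0.22), from 13.5 and 14.9 to 8.34 and 7.36 CPM. MAPK8 encodes a JNK kinase of the stress branch. It was at 28.5 and 28.7 CPM in total and at 33.2 and 42.5 CPM in polysomal RNA. Its difference of 0.40 ± 0.17 missed the threshold (edgeR adjusted p = 0.0535). With each library left out in turn it ranged from 0.15 to 0.47. MAPK14, which encodes the p38 alpha kinase of the same branch, fell by 1.52 (SE 0.18). Of the ribosomal S6 kinases below ERK, RPS6KA3 fell by 1.26 (SE 0.15) and RPS6KA1 gave 0.10 ± 0.19.

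**Figure D2:**
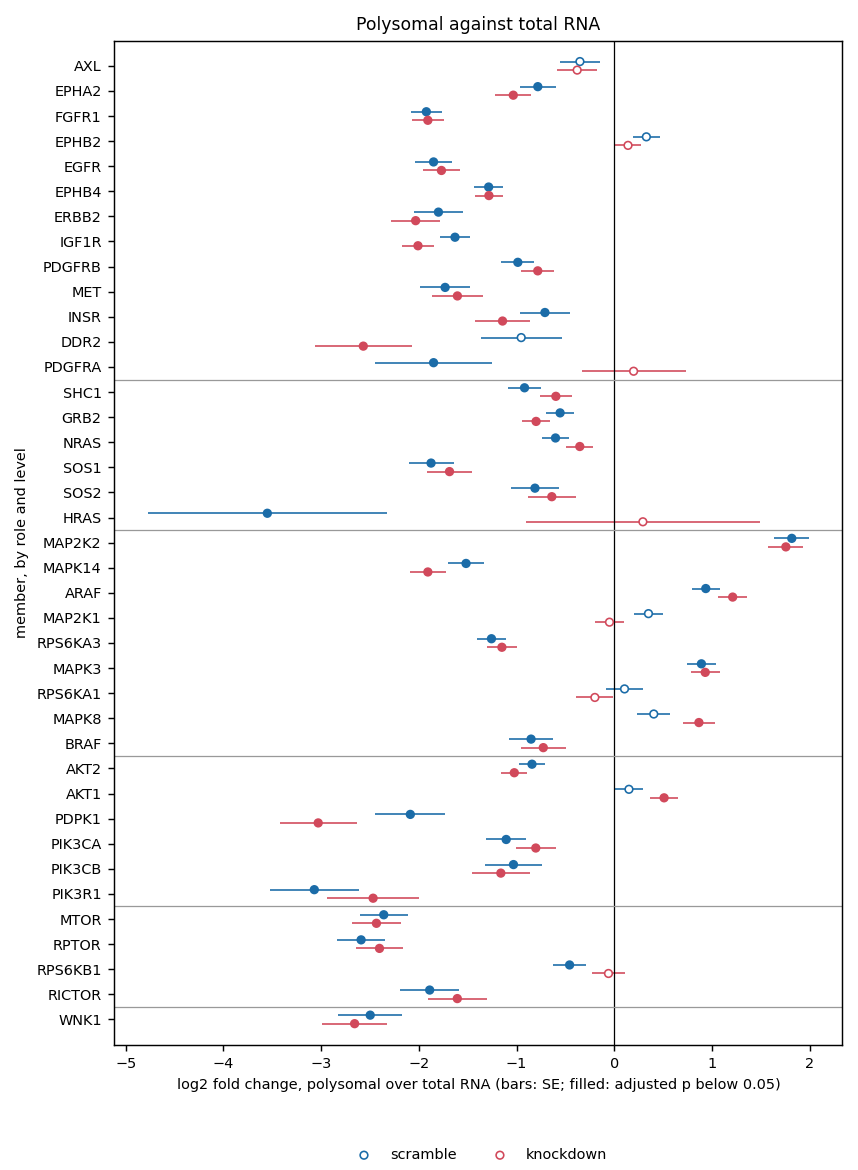
Log2 fold change of polysomal over total RNA for the 39 tested members in scramble (blue) and knockdown cells (red), with bars for 1 SE; filled points have an edgeR adjusted p below 0.05. MAP2K2, ARAF and MAPK3 are filled on the right in both lines, and most receptors and mTOR genes are filled on the left.

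All 4 mTOR genes fell, with a median of -2.13. RPTOR, the subunit that presents substrates to mTORC1, stood at 51.9 and 49.0 CPM in total and at 10.5 and 6.23 CPM in polysomal RNA, a log2 fold change of -2.59 ± 0.24 (edgeR adjusted p = 5.61e-06). MTOR itself stood at 95.2 and 86.4 CPM in total and at 21.8 and 13.5 CPM in polysomal RNA (-2.36 ± 0.24, edgeR adjusted p = 1.03e-05). For both genes the highest polysomal library lay far below the lowest total library. RICTOR, the defining subunit of mTORC2, fell by 1.89 (SE 0.30), and RPS6KB1, the S6 kinase that mTORC1 activates, by 0.46 (SE 0.17).

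Of the 6 PI3K-AKT genes 5 fell. PIK3R1, the regulatory subunit that holds the lipid kinase in check, stood at 16.7 and 17.1 CPM in total and at 3.09 and 0.891 CPM in polysomal RNA (-3.07 ± 0.46, edgeR adjusted p = 1.48e-04). The catalytic subunit genes moved less, PIK3CA by -1.11 ± 0.20 and PIK3CB by -1.03 ± 0.29. PDPK1, the kinase that phosphorylates AKT, stood at 34.6 and 31.7 CPM in total and at 10.7 and 4.87 CPM in polysomal RNA (-2.09 ± 0.36, edgeR adjusted p = 4.03e-04). The AKT genes differed from each other in size, AKT2 with -0.84 ± 0.13 and AKT1 with 0.15 ± 0.14 (edgeR adjusted p = 0.378), although that difference was not itself tested. WNK1, a kinase of salt and volume control that AKT phosphorylates, stood at 164.9 and 154.7 CPM in total and at 39.5 and 16.9 CPM in polysomal RNA (-2.50 ± 0.33, edgeR adjusted p = 5.53e-05). The values of PIK3R1, PDPK1 and WNK1 moved with the scramble polysomal library left out. Without replicate 1 and without replicate 2 in turn, PIK3R1 gave -4.35 and -2.51, PDPK1 -2.87 and -1.70, and WNK1 -3.35 and -2.08, and each stayed called.

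Of the 13 tested receptors 10 fell and 0 rose, with a median of -1.29. FGFR1 had the largest fall among them, from 145.9 and 141.3 CPM to 33.7 and 42.0 CPM (-1.92 ± 0.16, edgeR adjusted p = 2.84e-06). EGFR went from 115.7 and 107.9 to 29.7 and 32.3 CPM, a fall of 1.85 (SE 0.19), and ERBB2 fell by 1.80 (SE 0.25), MET by 1.73 (SE 0.26), IGF1R by 1.63 (SE 0.15) and EPHB4 by 1.29 (SE 0.15). PDGFRB fell by 0.99 (SE 0.17), EPHA2 by 0.78 (SE 0.18) and INSR by 0.71 (SE 0.26). PDGFRA, with 5 and 10 counts in the polysomal libraries, fell by 1.85 (SE 0.60). The receptors that did not pass were AXL at -0.35 ± 0.20, DDR2 at -0.95 ± 0.42 and EPHB2 at 0.33 ± 0.14, the only receptor with a positive value (edgeR adjusted p = 0.151, 0.0650 and 0.0536).

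All 6 adaptor and RAS genes were called lower, with a median of -0.87. SOS1 fell by 1.88 (SE 0.23), SHC1 by 0.92 (SE 0.17), SOS2 by 0.81 (SE 0.24), NRAS by 0.60 (SE 0.14) and GRB2 by 0.56 (SE 0.15). The value of HRAS was -3.55 ± 1.23 (edgeR adjusted p = 0.0259), and its fractions overlapped. Without scramble total replicate 1 it was 0.59, so no direction is read for it.

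In knockdown cells 27 of the 39 members were lower in polysomal RNA, against 34.1% of all tested genes, and 5 were higher, against 28.9%. The medians were -1.02 over the members and -0.16 over all genes. The fractions did not overlap for 29 members that were lower (44.9% of all genes) and 6 that were higher (36.6%). MAP2K2 was higher by 1.76 ± 0.18, ARAF by 1.21 ± 0.15, MAPK3 by 0.93 ± 0.15, MAPK8 by 0.87 ± 0.17 (edgeR adjusted p = 9.79e-04) and AKT1 by 0.51 ± 0.14 (edgeR adjusted p = 0.00923). The call of AKT1 was lost without knockdown total replicate 2 and without knockdown polysome replicate 1, where the value was 0.47 and 0.28. The lowest members were PDPK1 at -3.03 ± 0.39, WNK1 at -2.66 ± 0.33, DDR2 at -2.57 ± 0.50, PIK3R1 at -2.47 ± 0.47, MTOR at -2.44 ± 0.25 and RPTOR at -2.40 ± 0.24. PDPK1 gave -3.82 without knockdown polysome replicate 2 and PIK3R1 -3.28 without knockdown polysome replicate 1, and both stayed called. PDGFRA gave 0.20 ± 0.53 and HRAS 0.29 ± 1.20, and neither passed. Whether these values differed from those of scramble cells was tested as a change of ratio and is given after the knockdown comparisons.

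Transcript length moved with these fold changes. The median count came from a gene with a reference transcript of 3056 to 3109 nt in scramble total RNA and of 1714 to 1839 nt in scramble polysomal RNA. The members are long, with a median transcript of 5498 nt against 3221 nt for 12683 tested coding genes and a median coding length of 2565 nt against 1413 nt. Across the members the log2 fold change of polysomal over total RNA in scramble cells had a Pearson r of -0.45 and a Spearman rho of -0.61 with log2 transcript length (39 genes, which share libraries and are not independent replicates). Without HRAS these were -0.76 and -0.74 over 38 genes, and over all tested coding genes -0.54 and -0.60.

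By coding length, the 14 members under 2000 nt had a median of -0.51 with 3 called higher and 8 lower. The 14 members of 2000 to 3500 nt had a median of -1.01 with 10 lower, and all 11 members over 3500 nt were called lower, with a median of -1.85. The corresponding medians over all tested coding genes were 0.37, -1.02 and -2.12. When the trend on transcript length over all coding genes was subtracted, an alternative chosen after the data were seen, the members' median went from -0.99 to 0.16 with 17 of 39 below 0. In knockdown cells it went from -1.02 to -0.04.

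Against genes of their own length, MAPK8 then stood highest at 1.60, followed by EPHB2 at 0.87, MAP2K2 at 0.84, AKT1 at 0.80 and MAP2K1 at 0.76. Apart from HRAS the lowest were PIK3R1 at -1.65, RPTOR at -1.25, MAPK14 at -0.93 and ERBB2 at -0.90, while IGF1R, with a transcript of 12235 nt, went from -1.63 to 0.16. MAPK3 went from 0.89 to 0.05. Members thus lay on both sides of the length trend, and the part of length in their fold changes was not tested.

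**Figure D3:**
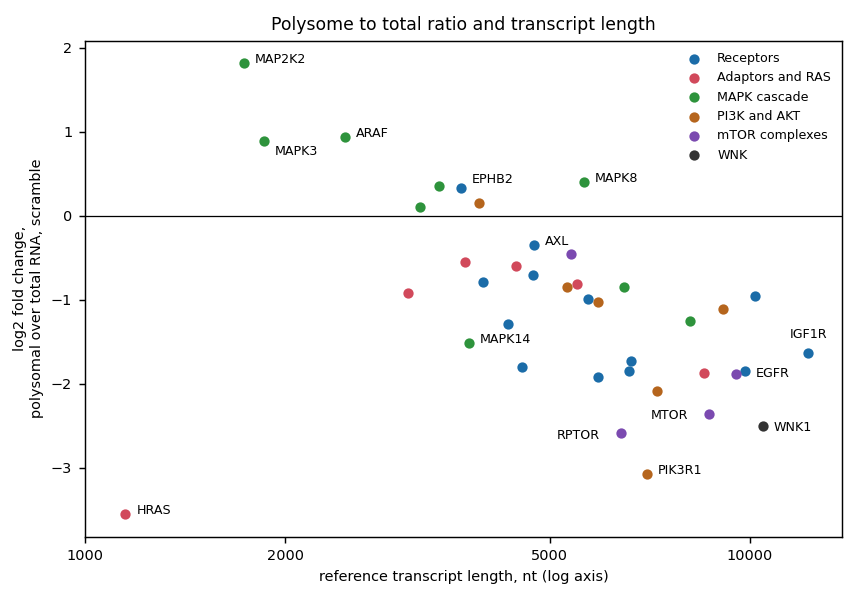
Log2 fold change of polysomal over total RNA in scramble cells against reference transcript length (log axis) for the 39 tested members, coloured by role. Values fall with length from MAP2K2 (1734 nt, 1.82) to WNK1 (10452 nt, -2.50), and HRAS (1151 nt, -3.55) lies apart at the lower left.

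Other genes of the same pathways were listed by role, 170 in all, of which 157 were tested. In polysomal RNA of scramble cells 37 of them (23.6%) were called higher, against 29.7% of all tested genes, and 81 (51.6%) lower, against 33.7%, which are also the shares to set beside the counts by role. Among 21 tested ligands 11 rose and 6 fell, with a median of 0.47. PDGFB, which encodes a ligand of the PDGF receptors, stood at 4.45 ± 1.05 CPM in total and 25.2 ± 4.32 CPM in polysomal RNA (SD, n = 2) and rose by 2.50, and EFNA1, an ephrin that binds EPHA2, rose by 2.21. EFNA5, another ephrin, fell by 2.40, and HGF, the ligand of MET, had no count in the scramble polysomal libraries, at least 5.63-fold lower than its 0.478 CPM in total RNA when set against 3 counts over the group.

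Of 21 other receptors 3 rose and 9 fell, with a median of -1.14. CSF1R, the macrophage colony-stimulating factor receptor, rose by 1.96 from 1.41 ± 0.311 CPM (SD, n = 2), and FGFR4 by 0.68. EPHB1, an ephrin receptor, and MST1R, a relative of MET, had no count in scramble polysomal RNA. Of 17 genes that restrain or degrade receptors 12 fell and 2 rose (median -0.99). Among these the phosphatase gene PTPRF fell by 3.05 and the ubiquitin ligase gene CBL fell by 2.88, whereas the phosphatase gene PTPN2 rose by 1.00 and GRB14, an adaptor that binds the insulin receptor, by 0.81.

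Of 19 RAS regulators 16 fell and 2 rose (median -1.94). The adaptor gene CRK fell by 3.52 and RAPGEF1, an exchange factor that CRK binds, by 2.78, while the RAS-like genes RRAS and RRAS2 rose by 2.68 and 1.21. Of 29 further MAPK genes 15 fell and 3 rose (median -0.82). The scaffold gene KSR1 fell by 3.68 and the kinase gene MAP3K1 by 2.92, and LAMTOR3 and LAMTOR1, whose products hold MEK and mTORC1 at lysosomes, rose by 2.08 and 1.99.

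Among 21 other PI3K-AKT genes 12 fell and 4 rose (median -1.28). The lipid kinase gene PIK3C2B fell by 3.84 and the AKT phosphatase gene PHLPP1 by 3.75, and the AKT-related kinase gene SGK1 rose by 1.54. Of the 21 other mTOR genes 12 rose and 5 fell, with a median of 0.79. The translational repressor gene EIF4EBP1 rose by 2.89 and the ribosomal protein gene RPS6 by 2.56, both targets of the branch, while ULK1, a kinase of autophagy, fell by 2.01 and TSC2, the brake on mTORC1, by 1.92. EIF4EBP1 and RPS6 have reference transcripts of 1020 and 1387 nt, ULK1 and TSC2 of 5310 and 6164 nt. Of 8 tested WNK relatives and targets 6 fell and 0 rose, with the cotransporter gene SLC12A7 at -2.35.

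The second comparison asks how the knockdown moved these genes in total RNA. edgeR called 0 of the 39 members, as it called 0% of all 16228 tested genes, and DESeq2 called 0 members against 0.16% of all genes. An unadjusted p under 0.05 was found for 4 members, against 3.68% of all genes. The median log2 fold change was -0.08 over the members and 0.02 over all genes, with 23 of 39 members and 47.1% of all genes below 0. The 2 hairpins' libraries did not overlap for 11 members that were higher (24.8% of all genes) and 15 that were lower (23.1%).

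EPHB2 had the smallest p among the members. It stood at 114.7 and 117.1 CPM in the scramble and at 148.5 and 157.0 CPM in the knockdown, a log2 fold change of 0.40 ± 0.14 (edgeR adjusted p = 1). MAP2K2 stood at 130.8 and 131.9 CPM against 201.7 and 171.6 CPM (0.51 ± 0.17, edgeR adjusted p = 1). Both knockdown libraries lay above both scramble libraries for these 2 genes. MAP2K2 was the only member called when DESeq2 was fitted to the 4 total libraries alone (adjusted p = 0.0391), an alternative chosen after the data were seen that called 127 genes.

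Lower values were measured for PDGFRB, at 38.9 and 41.4 CPM in the scramble and 27.8 and 31.7 CPM in the knockdown (-0.43 ± 0.16). INSR stood at 9.04 and 9.67 against 6.03 and 7.51 CPM (-0.47 ± 0.25). MTOR stood at 95.2 and 86.4 against 59.4 and 79.6 CPM (-0.39 ± 0.23). PIK3CA gave -0.34 ± 0.20 and RPS6KA3 -0.24 ± 0.14, and all of these had an edgeR adjusted p of 1. These 5 did not overlap between hairpins. HRAS gave -2.82 ± 1.12, and 1.35 without scramble total replicate 1. The role medians were -0.01 for receptors, -0.16 for adaptors and RAS, 0.02 for the MAPK cascades, -0.13 for PI3K-AKT and -0.27 for mTOR genes.

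The 2 knockdown total libraries were unlike in the length of the RNA they held, 2769 nt for the median count in replicate 1 and 3065 nt in replicate 2, against 3056 to 3109 nt in the scramble. Set against the mean of the scramble total libraries, the members' median log2 difference was -0.16 in knockdown replicate 1, with 25 of 39 below 0, and -0.01 in replicate 2, with 20 below 0. Leaving out HRAS, the Pearson r with log2 transcript length was -0.75 in replicate 1 and -0.40 in replicate 2 (38 genes). With HRAS it was -0.08 and -0.10 (39 genes), and over all tested coding genes -0.42 and -0.04. WNK1 was at -0.63 in replicate 1 and -0.06 in replicate 2, MTOR at -0.61 and -0.19, and EGFR at -0.49 and 0.09. With the length trend subtracted the members' median was 0.01 in both libraries. Differences closer between the libraries were those of PIK3R1 (-0.71 and -0.58), PDGFRB (-0.53 and -0.34), EPHB2 (0.36 and 0.44) and MAP2K2 (0.62 and 0.39). What set the length apart in replicate 1 was not tested.

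**Figure D4:**
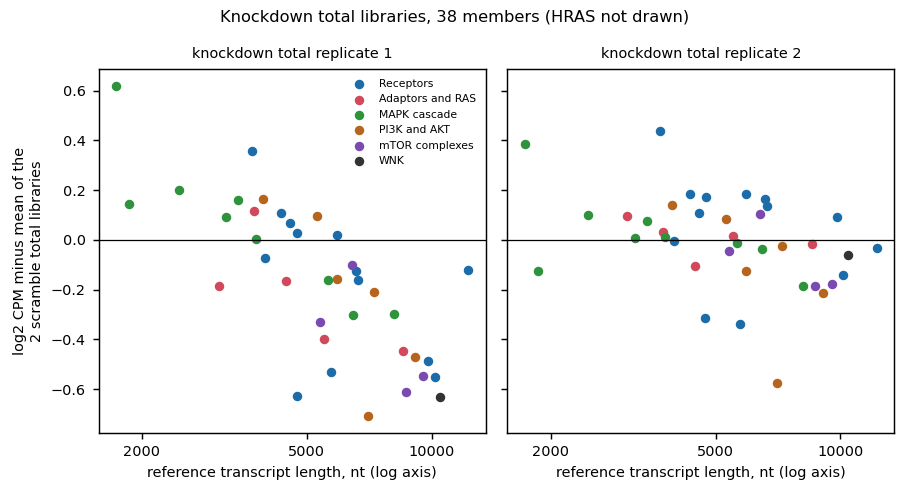
Log2 CPM of each knockdown total library minus the mean of the 2 scramble total libraries, against reference transcript length (log axis), for 38 members without HRAS. In replicate 1 (left panel) values tend to fall with length, with MAP2K2 at 0.62 and WNK1 at -0.63, and in replicate 2 (right panel) the slope is flatter, with WNK1 at -0.06.

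Of the other pathway genes edgeR called 0 in total RNA, and 7 of the 157 had an unadjusted p under 0.05, against 3.68% of all genes. The 1 gene that DESeq2 called there, against 0.16% of all genes, was GAS6, the ligand of AXL. It stood at 83.8 and 74.3 CPM in the scramble and at 132.3 and 126.1 CPM in the knockdown, a log2 fold change of 0.71 ± 0.15 (DESeq2 adjusted p = 0.00491, edgeR adjusted p = 0.548). Its receptor AXL stood at 653.8 and 654.0 CPM against 666.3 and 737.2 CPM, a difference of 0.10 ± 0.20. In polysomal RNA GAS6 stood at 124.3 and 138.4 CPM in the scramble and at 141.2 and 122.6 CPM in the knockdown, with overlap.

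In polysomal RNA edgeR called 0 of the 39 members, against 0.0123% of all tested genes (2 genes, EIF4G2 among them), and DESeq2 called 1 member, AKT1, against 1.4% of all genes. An unadjusted p under 0.05 was found for 9 members, against 13.3% of all genes. The median was -0.04 over the members and -0.01 over all genes, with 23 of 39 members and 51.4% of all genes below 0. The libraries did not overlap for 9 members that were higher (15.5% of all genes) and for 8 that were lower (18.5%). Over these 39 members the log2 fold change had a Pearson r of -0.39 with log2 transcript length, and -0.29 without HRAS (38 genes). Over all tested coding genes it was -0.01. The part of length in the members' values was not tested.

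AKT1, the more studied of the AKT kinases, lies on chromosome 14 (104769349 to 104795751, minus strand, GRCh38). It stood at 113.9 and 123.7 CPM in scramble polysomal RNA and at 183.8 and 154.8 CPM in knockdown polysomal RNA. The knockdown libraries lay above the scramble ones, by 0.51 ± 0.14 on the log2 scale. The adjusted p was 0.0398 in DESeq2 and 0.201 in edgeR, and 0.700 when DESeq2 was fitted to the 4 polysomal libraries alone. In total RNA AKT1 stood at 106.4 and 107.8 against 119.9 and 118.1 CPM, a difference of 0.15 ± 0.14.

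ARAF and MAP2K2, kinases of the ERK cascade, had higher values in the knockdown without passing. ARAF stood at 111.9 and 130.4 CPM in the scramble and at 172.9 and 152.9 CPM in the knockdown (0.43 ± 0.14, edgeR adjusted p = 0.264). MAP2K2 stood at 442.0 and 482.6 against 719.6 and 540.5 CPM (0.45 ± 0.17, edgeR adjusted p = 0.314), and gave 0.19 without knockdown polysome replicate 1. Neither gene's hairpin groups overlapped.

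Receptors had both the most negative and the most positive value among the members, each on few counts. DDR2 was counted 59 and 25 times in the scramble polysomal libraries and 9 and 7 times in the knockdown ones, or 3.20 and 1.48 against 0.607 and 0.594 CPM. Its log2 fold change was -1.96 ± 0.51 (edgeR adjusted p = 0.187) and -1.32 without scramble polysome replicate 1. PDGFRA was counted 5 and 10 times for the scramble and 32 and 17 times for the knockdown, or 0.271 and 0.594 against 2.16 and 1.44 CPM (2.06 ± 0.61, edgeR adjusted p = 0.226). The groups did not overlap for either gene, and without a single library PDGFRA ranged from 1.58 to 2.65.

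The receptors of insulin and of insulin-like growth factor had lower values in the knockdown. INSR stood at 5.85 and 5.58 CPM in the scramble and at 3.37 and 2.72 CPM in the knockdown (-0.90 ± 0.28, edgeR adjusted p = 0.244). IGF1R stood at 18.3 and 18.2 against 14.2 and 12.4 CPM (-0.46 ± 0.16, edgeR adjusted p = 0.276). Neither overlapped between hairpins and neither passed. PDPK1 stood at 10.7 and 4.87 against 2.36 and 5.26 CPM, with overlap (-1.06 ± 0.40, edgeR adjusted p = 0.309), and gave -0.41 without scramble polysome replicate 1 and -1.79 without knockdown polysome replicate 2.

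**Figure D5:**
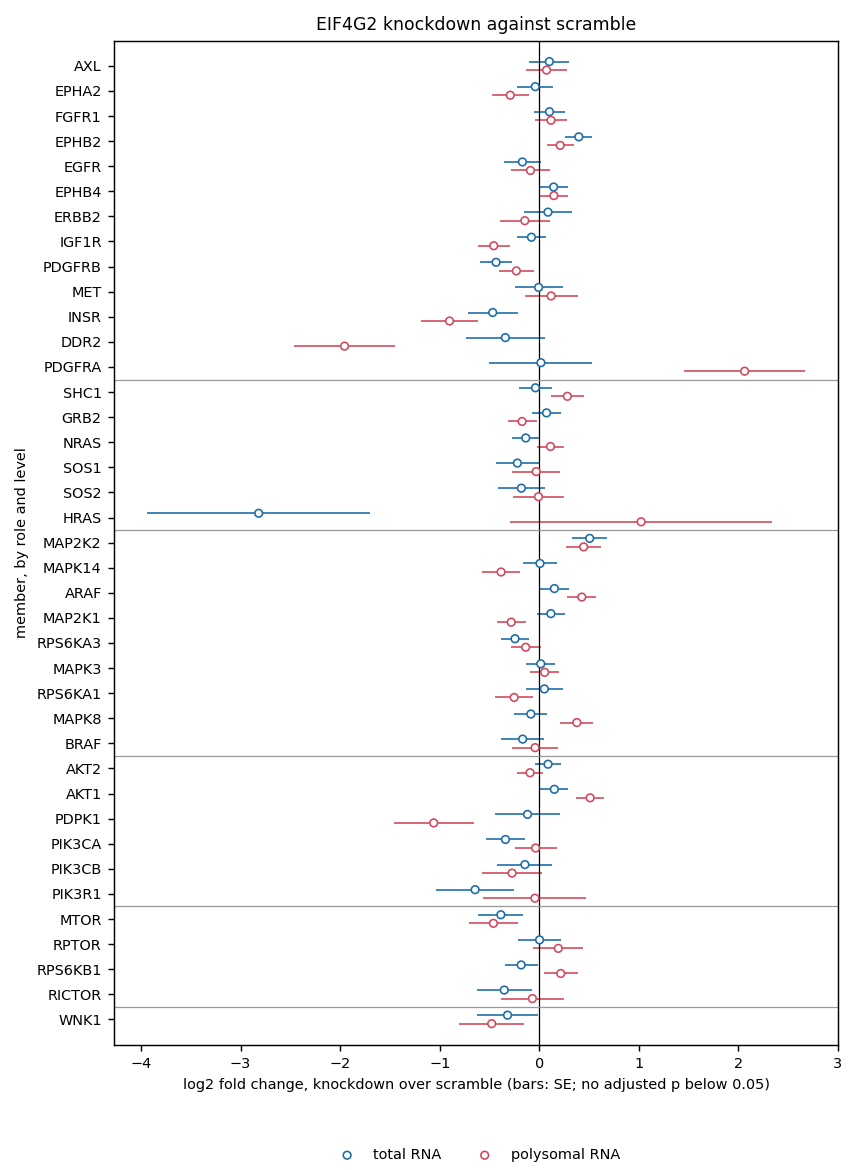
Log2 fold change of knockdown over scramble for the 39 tested members in total (blue) and polysomal RNA (red), with bars for 1 SE; all points are open because no edgeR adjusted p was below 0.05. Most points lie within 0.5 of 0, and HRAS, DDR2 and PDGFRA stand out with wide bars.

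Among the other pathway genes edgeR called 0 in polysomal RNA, and 28 of the 157 had an unadjusted p under 0.05, against 13.3% of all genes. DESeq2 called 3 of the 157 there, all receptors, against 1.4% of all genes. EPHB1 had 0 and 0 counts in scramble and 17 and 16 counts in knockdown polysomal RNA, at least 14.7-fold higher when the scramble is set at 3 counts over the group (DESeq2 adjusted p = 0.00630, edgeR adjusted p = 0.157). In total RNA it had 12 and 16 counts against 61 and 57. IGF2R, the scavenger receptor of IGF2, stood at 10.1 and 7.84 against 3.10 and 4.33 CPM (-1.28 ± 0.26, DESeq2 adjusted p = 0.00402, edgeR adjusted p = 0.161). Its total RNA stood at 206.9 and 193.8 CPM in the scramble and at 117.5 and 174.0 CPM in the knockdown. LRP1, an endocytic receptor that binds PDGFRB, gave -0.99 ± 0.27 in polysomal RNA (DESeq2 adjusted p = 0.0398, edgeR adjusted p = 0.195). Its polysomal libraries stood at 31.0 and 17.2 CPM in the scramble and at 12.1 and 12.2 CPM in the knockdown. In total RNA LRP1 stood at 236.5 and 208.1 against 160.1 and 225.5 CPM, with overlap.

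The last comparison asks whether the knockdown changed the polysomal to total ratio of a gene, which is the test of the difference between the fraction comparisons of the 2 lines. edgeR called 0 of the 39 members, as it called 0% of all tested genes, with 3 members at an unadjusted p under 0.05 against 6.27% of all genes, and DESeq2 called 0 against 0.0246%. The median change was 0.04 on the log2 scale over the members and -0.07 over all genes, with 17 of 39 members and 55.9% of all genes below 0. PDGFRA had 2.05 ± 0.80, DDR2 -1.62 ± 0.65 and HRAS 3.84 ± 1.71, the last of which was -0.33 without scramble total replicate 1. MAPK8 gave 0.46 ± 0.24, AKT1 0.36 ± 0.20, MAP2K1 -0.40 ± 0.21, IGF1R -0.38 ± 0.22 and PDPK1 -0.94 ± 0.52, and the edgeR adjusted p of these 8 genes lay between 0.776 and 0.781. With 1 library left out at a time DDR2 ranged from -2.11 to -0.96 and PDGFRA from 1.58 to 2.65, each end reached without a scramble polysomal library, and PDPK1 from -1.65 (without knockdown polysome replicate 2) to -0.27 (without scramble polysome replicate 1). Among members with over 100 CPM in scramble total RNA the SE of this change ran from 0.18 for AKT2 to 0.45 for WNK1, which limits what 2 libraries a group can show.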

How the data were processed

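Polyadenylated total and polysomal RNA of 8 libraries was sequenced. The authors deposited whole-number read counts per gene symbol, not normalized, and every row named a gene. The submitters' processing notes list HISAT2 2.1.0, featureCounts, Subread 2.0.1, bcl2fastq 2.19.0, Trimmomatic 0.36, R 4.1.2 and DESeq2 beside the GRCh38 build, with neither roles nor options. The gene annotation and strand setting are not given in the sources used here.

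Groups came from the sample titles. Counts were filtered with filterByExpr, TMM-scaled and fitted over all 8 libraries (4 residual degrees of freedom, prior 6.77) with edgeR 4.0.16 in R 4.3.3, a quasi-likelihood test with Benjamini-Hochberg adjustment over all tested genes and a threshold of 0.05. The 5 comparisons were knockdown against scramble in each fraction, their difference, and polysomal against total RNA in each line. The SE is the log2 fold change divided by the root of the F statistic. DESeq2 1.42.0 (Wald test) was the alternative tool, with missing adjusted p left missing. The fit was also run on simulated counts, with planted changes larger than most hairpin differences here and none in the polysomal to total ratio. That run does not show how well smaller changes, or changes of the ratio, would be found.

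Lengths, coordinates and start codons are of 1 GENCODE release 29 transcript per gene (principal isoform, then longest coding sequence). The length trend was a lowess over tested coding genes. Named members are the 8 with the smallest p per knockdown comparison, those called by either tool, and the 6 highest and 6 lowest per fraction comparison. In each pathway list the named genes are the called ones and, between fractions, the 2 highest and 2 lowest called, of which 2 genes are not reported here. The members and lists were chosen with earlier results of these data known. Alternatives were other size factors, no filter, DESeq2, a replicate block, each library left out and the 4 libraries of a fraction alone. Added later were DESeq2 on 4 libraries, the length trend and the counts of neighbouring genes.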

Additional observations from a re-analysis of the deposited data

How the results depend on the processing

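The counts that moved by more than 1.5 times were those of the knockdown comparisons. In total RNA edgeR called 0 genes, against 26 with DESeq2, 38 with no filter on low counts, 10 when the 4 total libraries were fitted alone and 127 with DESeq2 on those 4. In polysomal RNA it called 2, against 228 with DESeq2, 502 with no filter, 12 with DESeq2 on the 4 polysomal libraries and 0 to 183 with each library left out, the highest without knockdown polysome replicate 2. For the polysomal to total ratio it called 0, against 4 with DESeq2, 64 with no filter and 0 to 2 with a library left out. Members called rose from 0 to 1 in total RNA, 2 in polysomal RNA (DDR2 and PDPK1) and 1 in the ratio with no filter, to 1 with DESeq2 in polysomal RNA, and to 1 with DESeq2 on the 4 total libraries. Between fractions 32 members were called in each line, and 27 to 33 with a library left out. With a library left out HRAS ranged from -4.03 to 1.35 in total RNA, from -0.33 to 5.05 for the ratio and from -4.54 to 0.59 between fractions in scramble cells, changing sign each time without scramble total replicate 1, and in knockdown cells between fractions from -0.39 to 1.47, changing sign without knockdown total replicate 1 or without knockdown polysome replicate 2 (-0.17). The members' median between fractions in scramble cells changed sign to 0.16 once the length trend was subtracted. The cause was not tested. EIF4G2 in polysomal RNA lost its edgeR call in 5 of the 8 fits that left out a library (adjusted p = 0.102 to 0.224). Libraries that share a replicate number did not deviate together (r from -0.0921 to 0.0264 over 6 pairs of groups, 16228 genes). The labels do not say whether these libraries came from the same culture, and a small r cannot settle it. With a replicate block 0, 3 and 0 genes were called in the 3 knockdown comparisons, and 30 members in scramble and 31 in knockdown cells between fractions. The block ended the call of HRAS between fractions in scramble cells (adjusted p = 0.108) and changed no other call among the named members. DDR2 and PDGFRA had 5 to 59 counts per polysomal library, which limits the precision of their values.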
